A study of Rattus norvegicus with 8 samples.

Results

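The interferon response genes on this array were taken by name: every non-control probe whose gene name begins with or equals one of the usual interferon symbols (among them Ifit, Ifi, Ifitm, Irf, Oas, Mx, Isg, Gbp, Stat2, Rsad2, Usp18, Ddx58, Ifih1, Dhx58, Eif2ak2, Bst2, Trim25 and the Ifnar and Ifngr receptor chains). The rule found 68 of the 30367 probes on the array, for 61 of its 26204 gene names. Of these, 64 probes for 57 genes were bright enough to be tested, and 61 probes stood well above background throughout, on all 8 arrays. Gbp1, Ifit1, Ifit1lb and Irf4 were not tested, and no probe carried the name Ifnar2. The genes Eif2ak2, Gbp5, Ifi27l2b, Ifitm6, Irf1 and Usp18, among others, had more than 1 probe, and where 1 value was needed the tested probe with the highest mean signal was used.

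Whole ovaries of female rats were compared between 4 arrays labelled control and 4 arrays labelled PMSG. PMSG, or pregnant mare serum gonadotropin, acts mainly like follicle-stimulating hormone, and the comparison asks what it does to gene expression in the ovary. Rats of 26 days received a single dose of 50 IU PMSG under the skin in 0.2 ml of an albumin-containing phosphate buffer, or the buffer alone, and the animals were killed after 48 h, aged 28 days. No strain was given, and the labels do not say whether each array held 1 animal, so p-values measure the spread between these samples.

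Values are log2 signals relative to the 75th percentile of each array, so that 0 is the 75th percentile. A difference is the PMSG mean minus the control mean on this scale, and "rose" or "fell" means past an adjusted p of 0.05 in limma over 25303 probes. The 75th percentile of the raw signal lay between 769 and 1103 on the 8 arrays, and 80.8% to 84.5% of probes were well above background. Ovarian identity was present on all arrays, with the theca marker Cyp17a1 at 5.05 ± 0.15 (SD, n = 4) in control and 4.83 ± 0.49 (SD, n = 4) in PMSG. Among hormone-responsive markers, Lhcgr, the receptor for luteinising hormone, fell by -1.93 in arrays labelled PMSG. Star, the cholesterol import protein of steroid synthesis, fell by -2.75 (-2.05 at its other probe). Both went against the direction generally known for gonadotropin. So did Amh, a product of small growing follicles, which was higher by 3.03. The 9 oocyte markers tested, given below, all rose, again against that direction. Other theca and granulosa markers went both ways: Insl3 (2.60) and Esr2 (0.95) rose, Inhba (-1.32) and Nr5a2 (-1.47) fell, and Inha, Fshr and Foxl2 did not pass. Because of Lhcgr, Star, Amh and the oocyte markers, "PMSG arrays" and "control arrays" below mean the arrays so labelled, and every direction follows the labels. Control array 4 stood apart from the other controls in many interferon-induced genes, and results that rest on it are given with and without it.

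Interferons are secreted proteins that signal through paired receptor chains and Janus kinases to transcription factors of the STAT family and Irf9. These factors bind short elements in promoters, the interferon-stimulated response element (ISRE) for type I interferon and the gamma-activated site (GAS) for interferon gamma, and switch on antiviral genes. The OAS enzymes make short 2'-5' linked adenylate chains that activate RNase L, and rodents carry many Oas1 copies, of which mouse Oas1d is known from oocytes.

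The Oas1 genes divided into copies with and without an ISRE in their promoters, and because the copies also differed on the arrays, their sequences are shown first. RefSeq promoter windows on the GRCr8 assembly, running from 250 bases before to 50 bases after each annotated start, were available for 47 of the 61 genes. The same stretch of 36 bases, starting at a shared ccgccc upstream of the start, is given for the 7 Oas1 copies that had a window, with the ISRE core (GAAA, any 2 bases, then GAAA again, searched on both strands, overlapping matches joined) in capitals. It lies at chr12:41330412-41330447 (plus strand) for Oas1a, chr12:41395889-41395924 (minus) for Oas1b, chr12:41285177-41285212 (plus) for Oas1i, chr12:41318587-41318622 (minus) for Oas1d, chr12:41410915-41410950 (plus) for Oas1e, chr12:41366972-41367007 (minus) for Oas1f and chr12:41354022-41354057 (minus) for Oas1h.
Oas1a: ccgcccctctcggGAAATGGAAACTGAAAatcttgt
Oas1b: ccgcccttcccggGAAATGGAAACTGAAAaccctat
Oas1i: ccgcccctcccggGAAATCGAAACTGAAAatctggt
Oas1d: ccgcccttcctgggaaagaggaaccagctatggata
Oas1e: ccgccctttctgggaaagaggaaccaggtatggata
Oas1f: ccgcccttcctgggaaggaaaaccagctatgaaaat
Oas1h: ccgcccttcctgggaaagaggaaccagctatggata

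Oas1a, Oas1b and Oas1i held the ISRE core, and Oas1d, Oas1e, Oas1f and Oas1h did not hold these letters anywhere in their windows. Promoter windows aligned over 257 to 303 bases at 73.3% to 89.1% identity among Oas1a, Oas1b and Oas1i, and over 258 to 299 bases at 76.0% to 96.9% among the other 4. Between the groups only 37 to 141 bases aligned. The copies with and without the core are interspersed in the RefSeq order along the chromosome: Oas1i, Oas1d, Oas1a, Oas1h, Oas1f, Oas1b, Oas1e, Oas1k, Oas3, Oas2, with a pair of unnamed loci among them.

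Most interferon genes did not pass the test between the groups. Of 64 tested probes 14 (21.9%) differed between PMSG and control, 11 higher and 3 lower, where 34.2% of all tested probes did (17.6% higher and 16.6% lower). By brightest probe this was 13 of 57 genes, 11 higher and 2 lower. The groups did not overlap for 15 member probes (23.4%) against 36.6% of all probes, 12 of them higher (17.9% of all) and 3 lower (18.6% of all). The 5 genes that passed with at least a 2-fold difference were Oas1h, Oas1d, Oas1e, Oas1f and Ifitm1, all higher in PMSG, where 11.8% of all probes passed both limits. The median difference of the member probes was 0.0055, and that of all tested probes was 0.11. With arrays centred on their medians the latter became -0.05, and the member probes past the threshold were then 5 higher and 7 lower.

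**Figure D1:**
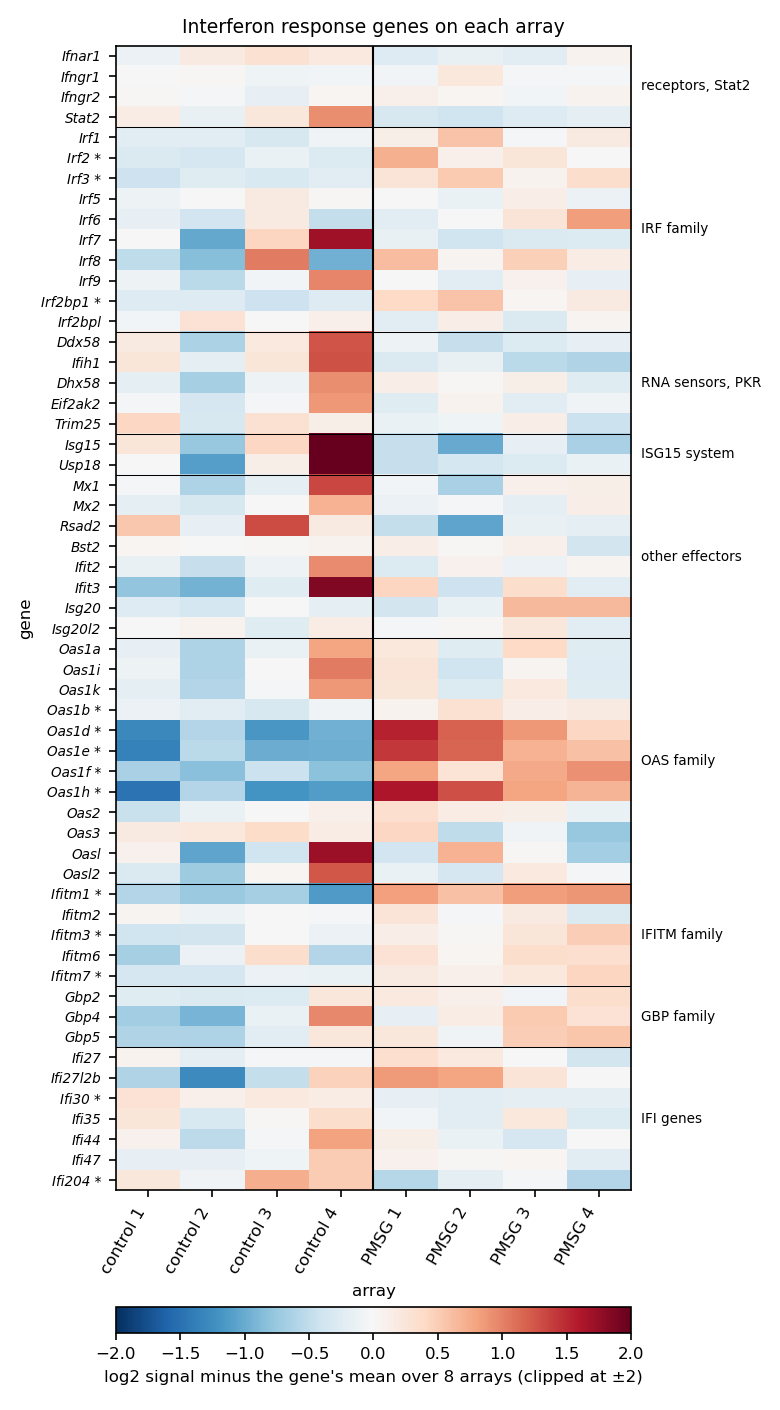
Signal of 56 of the tested genes (rows, by family) on each of the 8 arrays (columns), coloured by log2 signal minus the gene's mean over the 8 arrays and clipped at 2 on either side, with an asterisk at the 13 genes past the threshold. The Oas1d, Oas1e, Oas1f, Oas1h and Ifitm1 rows separate PMSG from control arrays, while control array 4 stands out in Usp18, Isg15, Irf7, Ifit3 and Oasl.

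Of the 5 interferon genes past both limits, 4 were the Oas1 copies without the ISRE letters. Oas1d (probe at chr12:36784809-36784868, minus strand, on the rn4 build of the file headers) read -1.62, -0.93, -1.5 and -1.30 in control arrays 1 to 4 and 1.20, 0.85, 0.53 and 0.08 in PMSG arrays 1 to 4. Every PMSG array lay above every control array. Oas1d rose by 2.00 (SE 0.25, adjusted p = 7.31e-04).

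Oas1h (chr12:36819920-36819979, minus strand, rn4) read -1.30, -0.41, -1.02 and -0.93 in the control arrays and 1.80, 1.47, 0.96 and 0.85 in the PMSG arrays. Again the groups were apart, with PMSG arrays 1 and 2 the highest. Oas1h rose by 2.19 (SE 0.26, adjusted p = 5.77e-04). Oas1e (chr12:36893578-36893637, plus strand, rn4) read -0.45, 0.35, -0.10 and -0.09 in control and 2.32, 2.06, 1.60 and 1.48 in PMSG, with no overlap and a rise of 1.93 (SE 0.23, adjusted p = 6.1e-04). The Oas1e and Oas1h probes share a run of 41 bases and match at 47 of the 48 positions over which they overlap, so signal from these copies cannot be fully told apart. No other pair of member genes shared 15 bases between their probes.

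Oas1f (chr12:36834996-36835055, minus strand, rn4) read -3.31, -3.49, -3.09 and -3.48 in control and -1.87, -2.38, -1.90 and -1.75 in PMSG. The groups did not overlap here either, but PMSG array 4 was the highest rather than the lowest. Oas1f rose by 1.36 (SE 0.16, adjusted p = 5.88e-04). Oas1d, Oas1e, Oas1f, Oas1h and Ifitm1 stayed past the threshold in every alternative fit, with adjusted p at most 0.0066.

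Among the copies with the ISRE core, Oas1a and Oas1i overlapped between groups and Oas1b rose slightly. Oas1a (chr12:36815068-36815127, rn4) read 0.94, 0.50, 0.97 and 1.89 in control and 1.32, 0.86, 1.51 and 0.87 in PMSG, with its highest value on control array 4. Its difference was 0.07 (SE 0.30, adjusted p = 0.876). Oas1i read -0.20, -0.71, -0.09 and 0.93 in control and 0.15, -0.50, -0.05 and -0.36 in PMSG, a difference of -0.17 (SE 0.33, adjusted p = 0.704).

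Oas1b, an Oas1 copy whose mouse counterpart is known for flavivirus resistance, read 4.29, 4.20, 4.09 and 4.33 in control and 4.48, 4.72, 4.54 and 4.59 in PMSG. These narrow ranges did not overlap, and Oas1b rose by 0.35 (SE 0.099, adjusted p = 0.0259). The call was lost without control array 1, 2 or 3 or PMSG array 2 (highest adjusted p = 0.0709 over the arrays left out in turn) and with median centring. Oas1k, which had no window, read 0.77, 0.36, 0.92 and 1.81 in control and 1.18, 0.67, 1.15 and 0.71 in PMSG, again highest on control array 4 (difference -0.04, SE 0.30, adjusted p = 0.928). The other OAS enzymes did not pass the test: Oas2 differed by 0.23 (adjusted p = 0.264) and Oas3 by -0.46 (adjusted p = 0.168), which passed without PMSG array 1 (adjusted p = 0.0253) and with quantile normalization or median centring. The OAS-like genes Oasl and Oasl2 differed by -0.17 (adjusted p = 0.835) and -0.15 (adjusted p = 0.775).

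**Figure D2:**
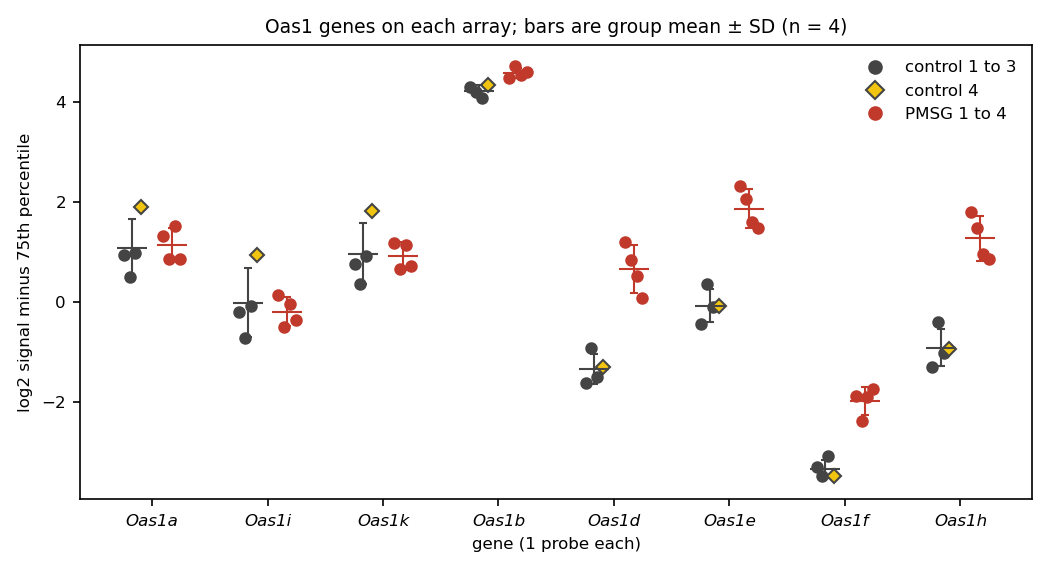
Log2 signal relative to the array's 75th percentile (vertical axis) for 8 Oas1 genes, with a point per array and the group mean ± SD (n = 4) as bars; control array 4 is the diamond. Oas1d, Oas1e, Oas1f and Oas1h lie apart between groups, and in Oas1a, Oas1i and Oas1k the diamond lies above all other points.

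Oocyte markers were also higher on the PMSG arrays. All 9 oocyte genes tested rose, where 17.6% of all tested probes did. They were Zp1, Zp2, Zp3, Gdf9, Bmp15, Zar1, H1foo, Nobox and Figla, of the egg coat and oocyte growth, with a median difference of 1.97. Their summed signal, on a linear scale where 1 is the array's 75th percentile, was 3.37, 6.08, 4.88 and 4.47 in control arrays 1 to 4 and 25.5, 21.4, 18.4 and 11.9 in PMSG arrays 1 to 4. Among PMSG arrays, the order from high to low was the same for this sum and for Oas1d, Oas1e and Oas1h, and among control arrays all of them were highest on array 2 and lowest on array 1. Oas1f did not follow this order: it was highest on PMSG array 4, where the oocyte sum was the lowest of the PMSG arrays, and lowest on control array 2, where the sum was the highest of the controls. The summed signal of 14 T and NK cell markers had that same order over the PMSG arrays, from 3.18 down to 1.56. Low values on PMSG array 4 were common: 2705 of 25303 tested probes lay at least 1 below the rest of its group there. For the other arrays this number was 126 to 542, so a low place on PMSG array 4 is not particular to these genes. The part of oocyte RNA in the Oas1 result was not tested, and in whole ovaries fewer cells of a type and less RNA per cell cannot be told apart.

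**Figure D3:**
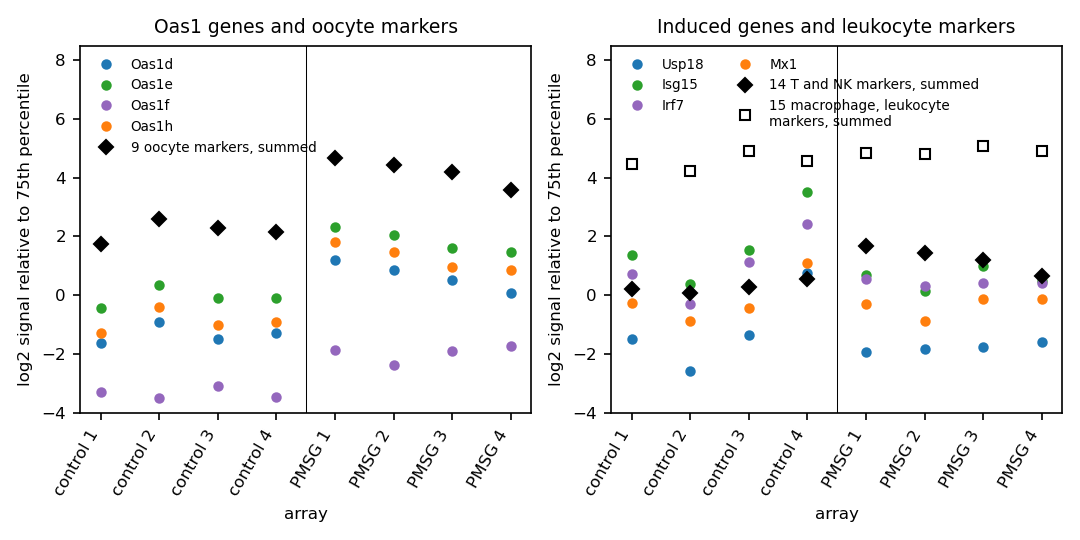
Log2 signal relative to the array's 75th percentile on each array, for Oas1d, Oas1e, Oas1f and Oas1h beside the summed signal of 9 oocyte markers (left), and for Usp18, Isg15, Irf7 and Mx1 beside the summed signals of 14 T and NK cell and 15 macrophage and pan-leukocyte markers (right). The left panel shows sums of 3.37 to 6.08 in control and 11.9 to 25.5 in PMSG before the log; the right panel shows the raised induced genes on control array 4, where the T and NK sum was 1.45.

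The IFITM proteins, small membrane proteins that block entry of enveloped viruses, rose in 3 of 5 genes, where 17.6% of all tested probes rose. Ifitm1 (chr1:201155335-201155394, plus strand, rn4) read 3.86, 3.70, 3.79 and 3.31 in control and 5.27, 5.04, 5.28 and 5.33 in PMSG. The PMSG arrays were close together and far above the control arrays, the lowest of which was control array 4. Ifitm1 rose by 1.57 (SE 0.14, adjusted p = 2.08e-04) and had no window among the promoters. Of 12 markers of oviduct and surface epithelium 7 rose and 0 fell, where 17.6% of all tested probes rose and 16.6% fell. Oocyte markers (9 of 9) and T and NK cell markers (9 of 14) rose as well. The epithelium markers summed to 33.0, 28.2, 35.4 and 26.6 in control arrays 1 to 4 and 41.4, 47.1, 55.7 and 62.9 in PMSG arrays 1 to 4. Like Ifitm1, this sum was lowest on control array 4 and highest on PMSG array 4. The orders differed otherwise: among controls the sum was highest on array 3 and Ifitm1 on array 1. Among PMSG arrays the sum was lowest on array 1 and Ifitm1 on array 2. The part of these markers in the Ifitm1 result was not tested.

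Ifitm7 read 0.87, 0.88, 1.1 and 1.08 in control and 1.38, 1.31, 1.43 and 1.64 in PMSG, and rose by 0.46 (SE 0.11, adjusted p = 0.0140). Ifitm3 read 1.61, 1.65, 2.01 and 1.90 in control and 2.14, 2.04, 2.25 and 2.50 in PMSG, and rose by 0.44 (SE 0.14, adjusted p = 0.0418). Neither overlapped between groups, but both lost the call with median centring, and Ifitm3 also lost it without control array 1, 2 or 4 or PMSG array 1, 3 or 4 (highest adjusted p = 0.110). Ifitm2 differed by 0.05 (SE 0.13, adjusted p = 0.795), although its promoter window holds GAAAAGGAAACT, the same 12 letters as that of Ifitm3. Ifitm6 was 0.51 higher without passing (adjusted p = 0.112), and passed without control array 3 (0.71, adjusted p = 0.0182).

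The receptor chains did not pass the test with all arrays. Ifnar1, a chain of the type I interferon receptor, read -2.25, -1.96, -1.83 and -1.95 in control and -2.39, -2.29, -2.37 and -2.07 in PMSG, a difference of -0.28 (SE 0.12, adjusted p = 0.115), which became -0.35 and passed without PMSG array 4 (adjusted p = 0.0478). The interferon gamma receptor chains Ifngr1 and Ifngr2 differed by 0.05 (adjusted p = 0.703) and 0.06 (adjusted p = 0.596). Of the interferon ligands, Ifna2, Ifna4 and Ifnb1 were bright enough to be tested and 0 of 3 passed, with differences of 0.73 (adjusted p = 0.204), 0.48 (adjusted p = 0.156) and 0.54 (adjusted p = 0.365). Ifng was well above background on 0 of 4 control and 3 of 4 PMSG arrays and was not tested. Of 4 further receptor chains and kinases 0 passed in limma. These counts of 0 stand beside 34.2% of all tested probes. At an unadjusted p under 0.05 there were 0 ligands and 1 of these receptor chains and kinases, against 45.4% of all tested probes.

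Stat2, the STAT factor of type I interferon signalling, read 2.08, 1.79, 2.16 and 2.86 in control and 1.61, 1.54, 1.68 and 1.74 in PMSG. The groups did not overlap, control array 4 was the highest, and the difference of -0.58 (SE 0.21) did not pass (adjusted p = 0.0657), though it did without control array 2 (adjusted p = 0.0355), with median centring and with normexp. Irf9, its DNA-binding partner, differed by -0.14 (SE 0.29, adjusted p = 0.737).

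Among the interferon regulatory factors and their binding partners, 3 of 10 genes rose and 0 fell in limma, where 17.6% of all tested probes rose and 16.6% fell. An unadjusted p under 0.05 was found for 4 of the 10, and for 45.4% of all tested probes. Irf3, which switches on interferon genes after viral RNA or DNA is sensed, read 2.30, 2.47, 2.42 and 2.49 in control and 2.97, 3.24, 2.79 and 3.07 in PMSG. The groups were apart and Irf3 rose by 0.60 (SE 0.12, adjusted p = 0.0054). Irf2bp1, a corepressor of Irf2, read -0.84, -0.85, -0.997 and -0.85 in control and -0.19, -0.02, -0.55 and -0.41 in PMSG, and rose by 0.59 (SE 0.13, adjusted p = 0.0090).

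Irf2, a repressor of interferon genes, read -6.11, -6.15, -5.94 and -6.09 in control and -5.10, -5.72, -5.58 and -5.83 in PMSG. It rose by 0.52 (SE 0.16, adjusted p = 0.0401) with no overlap, but the call was lost without any single control array and without PMSG array 2 or 3 (highest adjusted p = 0.0974), and in 8 of the 10 other alternatives. With median centring Irf3 and Irf2bp1 lost the call too. Irf1, an activator induced by interferon gamma, was 0.42 higher (SE 0.14, adjusted p = 0.0529), with no overlap at its brighter probe and a difference of 0.12 at the other. The brighter probe passed in 5 alternatives, among them quantile normalization (adjusted p = 0.0203) and the fit without PMSG array 3 (adjusted p = 0.0307). Irf7, the interferon-induced factor that amplifies type I responses, read 0.71, -0.31, 1.13 and 2.41 in control and 0.56, 0.31, 0.41 and 0.43 in PMSG. The PMSG values lay within the control range, and the difference was -0.55 (SE 0.49, adjusted p = 0.400).

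Of the 5 genes for RNA sensing 0 passed in limma, and 1 had an unadjusted p under 0.05. Over all tested probes the shares were 34.2% and 45.4%. Ddx58 (RIG-I) differed by -0.50 (SE 0.35, adjusted p = 0.288), Ifih1 (MDA5) by -0.79 (SE 0.29, adjusted p = 0.0681) and Dhx58 (LGP2) by 0.01 (SE 0.31, adjusted p = 0.982). Ifih1 passed with quantile normalization (adjusted p = 0.0324), with median centring and without control array 2. Eif2ak2, the kinase PKR that stops translation on double-stranded RNA, differed by -0.24 (SE 0.24, adjusted p = 0.464). At its dimmer probe the groups did not overlap and the difference was -0.73 (adjusted p = 0.108). Trim25, the ubiquitin ligase that acts on RIG-I, differed by -0.26 (SE 0.19, adjusted p = 0.312). Of 12 further sensing genes 4 passed, where 34.2% of all tested probes did. Ikbke rose by 0.58 (adjusted p = 0.0162) and Myd88, the adaptor of most Toll-like receptors, fell by -0.58 (adjusted p = 0.0016). Trex1, a DNA exonuclease, fell by -0.52 (adjusted p = 0.0428) and the receptor Tlr3 by -0.46 (adjusted p = 0.0350). Traf3 did not pass at its brighter probe (-0.27, adjusted p = 0.116) and fell at its dimmer one (-0.86, adjusted p = 0.0115). Trex1 lost the call without any single array other than PMSG array 3 and Tlr3 without control array 2 or 4 or PMSG array 1, 2 or 3, with adjusted p of 0.105 and 0.0815 at the highest, and Ikbke lost it with median centring. Of 8 negative regulators 1 passed, where 34.2% of all tested probes did. It was Ptpn2, a phosphatase of STAT proteins, which fell by -0.44 (adjusted p = 0.0329). That call was lost without control array 1, 2 or 4 or PMSG array 1 or 3 (adjusted p = 0.0910 without control array 4).

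The classical antiviral effectors spread widely among control arrays. Isg15, a ubiquitin-like protein, read 1.37, 0.39, 1.55 and 3.51 in control and 0.68, 0.13, 0.98 and 0.49 in PMSG. Control array 4 lay far above every other array, and the rest overlapped. The difference was -1.13 (SE 0.59, adjusted p = 0.167), and -0.53 (adjusted p = 0.261) without control array 4.

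Usp18, the protease that removes Isg15 and damps receptor signalling, read -1.49, -2.57, -1.36 and 0.74 in control and -1.93, -1.82, -1.75 and -1.61 in PMSG. It differed by -0.61 (SE 0.60, adjusted p = 0.449), and by 0.03 without control array 4. Mx1, a dynamin-like GTPase, read -0.28, -0.87, -0.43 and 1.09 in control and -0.31, -0.89, -0.15 and -0.14 in PMSG. Its difference was -0.25 (SE 0.40, adjusted p = 0.647), which turned to 0.16 without control array 4. Mx2 likewise differed by -0.09 (adjusted p = 0.753) and by 0.12 without that array.

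Rsad2 (viperin), an antiviral enzyme, had another pattern. It read 0.62, -0.08, 1.37 and 0.25 in control and -0.40, -0.99, -0.07 and -0.11 in PMSG, so that control array 3 and not array 4 was highest, and control array 2 was just inside the PMSG range. Its difference of -0.93 did not pass (SE 0.33, adjusted p = 0.0617) but did in 5 alternatives, among them the fit without control array 2 (adjusted p = 0.0395). Bst2 (tetherin), which holds budding virus at the cell surface, read between 5.90 and 5.96 in control and between 5.52 and 6.03 in PMSG, with a difference of -0.06 (adjusted p = 0.719).

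Of the genes named Ifi, 2 of 7 fell, where 16.6% of all tested probes fell and 34.2% changed either way. Ifi30, a lysosomal thiol reductase of antigen processing, read 3.93, 3.74, 3.84 and 3.79 in control and 3.48, 3.42, 3.47 and 3.46 in PMSG. The PMSG values were nearly equal and all below control, a fall of -0.37 (SE 0.084, adjusted p = 0.0107) that lost its call under quantile normalization. Ifi204, a DNA-binding HIN-200 family protein of myeloid cells, read -1.02, -1.32, -0.52 and -0.73 in control and -1.82, -1.44, -1.28 and -1.82 in PMSG. Control array 2 lay within the PMSG range, and Ifi204 fell by -0.69 (SE 0.21, adjusted p = 0.0319). That call was lost without control array 1, 3 or 4 or PMSG array 1, 2 or 4 (highest adjusted p = 0.0844).

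Ifi27l2b, a member of the Ifi27 family of small interferon-induced proteins, read 4.18, 3.5, 4.30 and 5.23 in control and 5.63, 5.56, 5.03 and 4.79 in PMSG. Only control array 4 reached into the PMSG range. The difference was 0.95 (SE 0.36, adjusted p = 0.0750), and without control array 4 it was 1.26 (adjusted p = 0.0167), past the threshold. Of the guanylate-binding GTPases, Gbp5 differed by 0.60 (adjusted p = 0.0720) with all arrays and by 0.78 (adjusted p = 0.0241) without control array 4, and Gbp2 by 0.29 (adjusted p = 0.162) and 0.42 (adjusted p = 0.0467).

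On control array 4 many interferon-induced genes were raised. It held the highest of the 4 control values for 38 of 64 member probes (59.4%), against 21.5% of all tested probes, and the highest of all 8 arrays for 26 (40.6%) against 11.1%. It lay at least 1 above the mean of control arrays 1 to 3 for 20 member probes (31.2%) and for 0.759% of all tested probes. For no other array did more than 3 member probes lie as far above the rest of its group. Among 43 further interferon-induced genes of the pathway list control array 4 was the highest control for 34, with a median excess of 0.63.

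The excess on control array 4 was greatest for Usp18 (2.55), Ifit3 (2.51), Isg15 (2.41), Oasl (2.16), Irf7 (1.90) and Mx1 (1.62), and exceeded 1 also for Oasl2, Gbp4, Ddx58, Oas1i, Dhx58, Ifi27l2b, Irf9, Ifit2, Ifih1, Oas1k and Oas1a. Oasl was well above background on 3 of 4 control arrays and Gbp4 on 2 of 4, so their excess was measured partly against values near background. The excess was near 0 for Bst2 (0.04), Ifi27 (0.02), Oas1d (0.05) and Oas1h (-0.02). Rsad2 (-0.39) and Ifitm1 (-0.48) were below the other controls. Control array 2 was the opposite, with the lowest control value for 40 of 64 member probes (62.5%) against 25.3% of all. The within-group SD was larger in control than in PMSG for 42 member probes (65.6%), where this held for 26.7% of all tested probes.

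Leukocyte markers gave these values beside it. On control array 4 the summed signal of 15 macrophage and pan-leukocyte markers was 23.5, within the range of 18.8 to 29.8 over control arrays. That of the T and NK cell markers was 1.45, the highest of the controls (lowest 1.04) and below all PMSG arrays (1.56 to 3.18). Control array 4 was the highest control for 11 of these 14 genes, and for 21.5% of all tested probes. Klrd1 and Klrb1a were well above background on 0 of 4 control arrays and entered only through the PMSG arrays. Cd3e was so on 1 control array, and the control order of these genes lies near background. Of the dendritic cell markers, Flt3, Batf3 and Itgax summed to 0.101 on control array 4, the lowest of the controls (highest 0.140), and Siglech and Xcr1 were too dim to test. The 4 B cell markers summed to 0.121 on control array 4, the lowest of all arrays. The macrophage sum in PMSG was 27.8 to 34.1. The part of any leukocyte in the raised genes was not tested.

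Without control array 4, 16 of 64 member probes passed, 14 higher and 2 lower (25% of the members, where 25.9% of all probes passed, 12.9% higher and 13% lower). At the gene level 10 genes passed both ways, Ifi204, Ifitm3 and Irf2 were lost, and Gbp2, Gbp4, Gbp5 and Ifi27l2b were gained. The median member difference was 0.17 without that array, against 0.099 for all tested probes.

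The interferon elements were then counted in the promoter windows of all members. The ISRE core as spelled above, on either strand, lay in 22 of 49 member windows (44.9%) and in 3.92% of the 33469 RefSeq windows of the same length. The longer form, in which the letters CT follow the core and which thus overlaps it, lay in 13 (26.5%) and in 0.278% of all. The GAS letters TTCNNNGAA lay in 12 (24.5%) and in 8.87% of all. The control array 4 excess had a median of 0.60 over the 20 tested genes with an ISRE core and of 0.06 over the 24 without one, while the median PMSG difference was 0.06 with and -0.02 without. For the longer form, and likewise for the GAS letters, the median excess was 0.14 with and 0.10 without. Genes past the threshold numbered 3 of 20 with the ISRE core and 8 of 24 without it. They were 6 of 12 with the GAS letters and 5 of 32 without them, where 34.2% of all tested probes passed.

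The letters did not sort the genes cleanly. The windows of Irf7 and Rsad2 hold the same core on the opposite strand, TTTCATTTTC, from position -69 and -147 relative to the start, and control array 4 was 1.90 above the other controls in Irf7 and -0.39 from them in Rsad2. Those of Ifit3 and Ifi44 both hold TTTCAGTTTC, from position -44 and -26, with an excess of 2.51 and 0.97. Oas1a and Oas1b hold an identical core run, with an excess of 1.09 and 0.14. Mx1, Oasl and Irf9 were raised on control array 4 by 1.62, 2.16 and 1.21 without the letters in their windows.

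**Figure D4:**
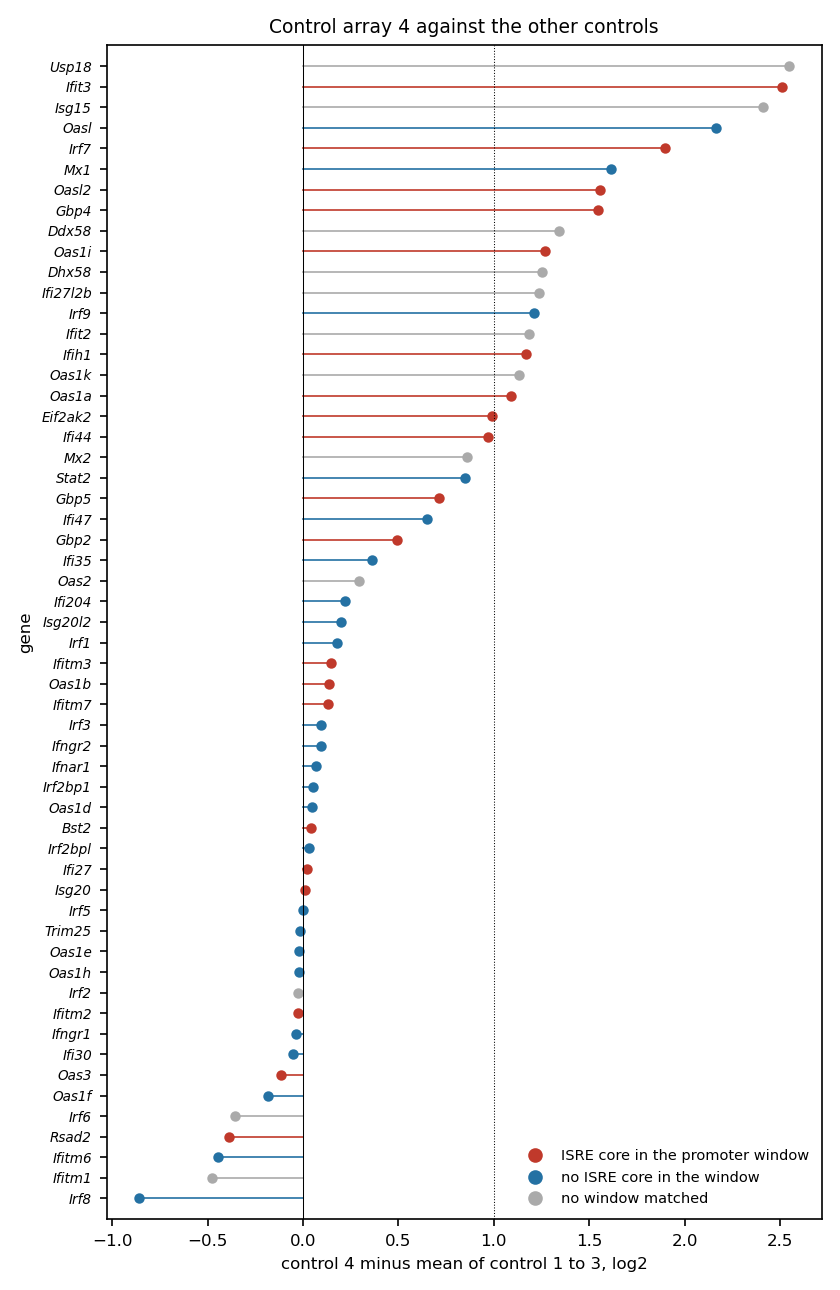
Control array 4 minus the mean of control arrays 1 to 3 (log2, horizontal axis) for 56 of the tested genes, sorted, coloured by whether the RefSeq promoter window holds the ISRE core; the dotted line marks 1. The 17 genes beyond the line run up to Usp18 at 2.55, and Irf8 at -0.86 is the lowest.

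The wider list of interferon-induced genes outside the name rule gave 7 of 43 past the threshold, 4 higher and 3 lower, where 34.2% of all tested probes passed (17.6% higher and 16.6% lower). Tnfsf10, the death ligand TRAIL, was well above background on 0 of 4 control and 4 of 4 PMSG arrays and was at least 2.52-fold higher in PMSG, the bound being the PMSG mean over the lowest well-above-background signal of each control array. It entered the test only through the PMSG arrays, so it counts among the 4 higher with no p given, and with the deposited log2 table it was not called. Plscr1, a phospholipid scramblase, fell by -1.61 (SE 0.16, adjusted p = 3.04e-04). Ciita, the MHC class II transactivator, rose by 0.96 (adjusted p = 0.0078), the T cell chemokine Ccl5 by 0.95 (adjusted p = 0.0234) and the chemokine Cxcl9 by 0.51 (adjusted p = 0.0115). Slfn2, a regulator of T cell quiescence, fell by -1.32 (adjusted p = 1.48e-04) and Zc3hav1, the antiviral protein ZAP, by -0.97 (adjusted p = 0.0029). Ccl5 lost the call without control array 1, 2 or 3 or PMSG array 1, 2 or 3 (highest adjusted p over all alternatives 0.0810), Ciita with quantile normalization (adjusted p = 0.131) and Zc3hav1 with normexp background correction (adjusted p = 0.0777).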

How the data were processed

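Ovary RNA of 8 samples was measured on 1-colour Agilent 60-base probe arrays. Total RNA (500 ng) was copied from an oligo-dT primer into cRNA carrying Cy3, per the labels' protocols. The deposited spot intensity was extracted by the authors with Agilent Feature Extraction 11.5.1.1, per the file headers and the submitters' processing notes. All arrays lay on 1 slide. A second deposited file from the authors holds log2 values, which matched log2 signal minus each array's 75th percentile on every array without centring of probes, and served as an alternative.

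From 58717 spots, outlier spots were left out, log2 processed signals were averaged per probe (17 probes dropped, 30350 kept, 0 saturated spots) and each array's 75th percentile was subtracted. A probe was tested where at least 0.5 of its usable spots were well above background on at least 4 of the 8 arrays. Groups, taken from the sample titles, were compared by lmFit and eBayes of limma 3.58.1 (R 4.3.3), Benjamini-Hochberg adjusted over 25303 probes at 0.05. With 4 arrays per group their number limits the precision. The procedure was tested on simulated data.

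The members, the pathway and marker lists and the tests were chosen with earlier results of these data known. Named genes are up to 10 per direction with the largest difference past the threshold, a fixed set of receptors and core factors, genes with only a bound, and the 2 largest of each pathway list. Further Oas, Ifi, Ifit, Ifitm and Gbp genes were named after their values were seen. So were the sensing genes Trex1, Tlr3 and Traf3 and the induced genes Slfn2, Ciita, Ccl5, Cxcl9 and Zc3hav1. The untested ligand Ifng, Irf8, the theca and granulosa markers and the T and NK cell markers Klrd1, Klrb1a and Cd3e were also named in that way. Gene names are those of the array. Promoter windows and gene order are RefSeq's on GRCr8. Probe coordinates are on rn4, for which no annotation was used here, so exon or UTR status is not given. Of the members, 1 gene is counted but not reported here by name.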

Additional observations from a re-analysis of the deposited data

Results flagged for a closer look

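In 3 of 106 groups of 4 arrays over the named genes, a single array lay far from the other 3, measured as its gap to the nearest array over the group's whole range and judged by Dixon's test. Chance gives about 1 such group in 20, so these are fewer than chance gives. The share was 2.83% over the named genes and 5.77% over all tested probes. Each gene is judged alone here, so this count does not measure how often the same array departs across genes. Control array 4 was the high one for 2 of 57 member genes (3.51%) and for 0.565% of all tested probes. Gbp2 on control array 4 read 2.38, where the other controls read 1.87 to 1.92 (gap 0.896). Ifngr1 on PMSG array 2 read 2.42, where the others read 2.15 to 2.17 (gap 0.921). Irf2bp1 on control array 3 read -0.997, where the others read -0.85 to -0.84 (gap 0.921).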

How the results depend on the processing

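The 4 arrays per group and signal over background limit the precision, and dim genes such as Ifit3, Oasl, Gbp4 and Irf2 sit near background. Leaving out 1 array at a time gave 9 to 16 member probes past the threshold, 8 to 14 higher and 1 to 6 lower; the 9 came without control array 1. Over all probes the count ran from 6552 to 11382, and over the pathway lists from 8 to 15, where it was 12 as reported. Median centring gave 5 higher and 7 lower member probes, and quantile normalization and normexp background correction gave 5 lower each. The count of member probes at least 1 above on control array 4 was 16 to 22 under 5 alternatives chosen after seeing the data. With slide row as a block 13 member probes passed, with Ifitm3 and Irf2 lost and Rsad2 gained. Same-numbered arrays did not deviate together (correlations 0.04, 0.04, 0.18 and -0.02), so the numbers were not taken as pairs. With a replicate block 14 member probes passed, 10 higher and 4 lower, with Irf2 and Oas1b lost and Gbp5 and Rsad2 gained.

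Signs turned for the following genes at their brightest probe, of which 0 passed the test as reported, and the cause was not tested. Leaving out 1 array at a time, the differences ran from -0.118 to 0.0521 for Bst2, -0.209 to 0.323 for Dhx58, -0.391 to 0.0101 for Eif2ak2, -0.0160 to 0.220 for Ifi27, -0.375 to 0.0708 for Ifi44, -0.296 to 0.175 for Ifit2, -0.236 to 0.697 for Ifit3, -0.0287 to 0.152 for Ifitm2 and -0.0134 to 0.0753 for Ifngr1. They ran from -0.339 to 0.167 for Irf9, -0.495 to 0.156 for Mx1, -0.218 to 0.121 for Mx2, -0.127 to 0.339 for Oas1a, -0.403 to 0.145 for Oas1i, -0.240 to 0.245 for Oas1k, -0.547 to 0.375 for Oasl, -0.409 to 0.240 for Oasl2 and -1.08 to 0.0278 for Usp18, where the upper end came without control array 4. With median centring the differences became -0.158 for Dhx58, -0.0847 for Ifi27, -0.0985 for Ifit3, -0.120 for Ifitm2, -0.118 for Ifngr1, -0.104 for Ifngr2 and -0.101 for Oas1a. Quantile normalization gave -0.0487 for Dhx58, -0.00816 for Ifi27, -0.202 for Ifit3 and 0.00933 for Oas1k, and array weights gave 0.0182 for Bst2, 0.0825 for Oas1k and 0.0112 for Oasl.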
